A study of Mus musculus with 3 samples.

Results

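The genes described here are interferon-stimulated genes (ISGs), the transcripts that cells make when type I interferon reaches them, in immune cells of the mouse thalamus after an injection of interleukin-33 (IL-33) or vehicle. They were chosen by name from a list of 35 known ISGs. Of these, 34 were among the 20586 genes of the deposited table, and Mx1 was not analysed here. They were followed in each library and in each deposited cell cluster, inside and outside cluster 5, whose cells hold these transcripts together.

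Type I interferons, a family that includes interferon-beta, bind a receptor made of Ifnar1 and Ifnar2. The kinases Jak1 and Tyk2 then signal through Stat2, which joins Irf9 in a complex that binds a DNA element called the interferon-stimulated response element (ISRE) in front of ISGs. Their products detect viral nucleic acid, block viral entry and translation, tag proteins with the ubiquitin-like protein Isg15, and both amplify and limit the response. Some ISGs, among them Gbp2 and Isg15, can also be induced by interferon-gamma, by interferon regulatory factors acting without the receptor, or with NF-kB, the main factor downstream of the IL-33 receptor. In the brain, small groups of microglia with high ISG levels are known from healthy, developing and diseased tissue.

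CD45+ cells, a gate that holds microglia and other leukocytes, were sorted from thalamus 4 hours after an intracerebroventricular injection and profiled by 10x Genomics droplet sequencing, which counts transcripts by unique molecular identifiers (UMIs). WT+IL33 came from Cx3cr1-creER heterozygous mice given IL-33, WT+Vehicle from mice of the same genotype given vehicle, and cKO+IL33 from Cx3cr1-creER heterozygous, ST2 flox homozygous mice given IL-33. ST2, encoded by Il1rl1, is the receptor chain that binds IL-33, and Cx3cr1-creER is an inducible recombinase made in microglia and related macrophages. Each group therefore carried the recombinase, no ST2 flox library given vehicle was analysed here, and the age and number of mice and any tamoxifen treatment are not stated in the labels. There was 1 library per group, so replicate spread is unknown and no difference was tested. Intervals in parentheses are 95% intervals that cover counting error only.

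The WT+IL33, cKO+IL33 and WT+Vehicle libraries held 2202, 2687 and 2709 cells and 12127214, 17480958 and 18269042 UMIs, with a median of 3951, 5119 and 5544 UMIs per cell, and 2 cell barcodes occurred in more than one library. The deposited sex calls differ between the libraries, with 1107 female and 1095 male cells in WT+IL33, 2648 and 39 in cKO+IL33, and 8 and 2701 in WT+Vehicle. Il1rl1, the targeted gene, stood at 5.77, 12.8 and 11.6 CPM, normalised UMI counts, in the same order. Whether those UMIs come from the part removed by the recombinase is not stated in the labels, so this level is no check of the deletion. Most WT+IL33 cells (1815) were in deposited cluster 1, whereas the largest clusters of cKO+IL33 (1374 cells) and WT+Vehicle (1327) were cluster 0. All 8 microglial markers examined, Tmem119 and P2ry12 among them, were above 10 CPM in each library, and Cd3d, Cd3e, Cd3g and Trac, which define T cells, were at or near 0.

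A sequence feature of ISGs was found in the promoter windows of many members. They were chosen as known ISGs, so its excess among them is no independent observation. RefSeq promoters (build GRCm38.p6, 250 bases before to 50 after a listed start site) were found for 27 of the 34 measured genes. Such a site can lie inside the annotated gene, as for Ifit3, whose window begins at 34583279 and whose gene begins at 34583119. The ISRE core, searched on either strand as GAAA, any 2 bases and GAAA, was in 16 of these 27 (59.3%) and in 1079 of all 27025 genes with such a window (3.99%). The interferon-gamma activated site core, TTC, any 3 bases and GAA, was in 4 of 27 (14.8%) against 9.55% of all genes, and an NF-kB site, GGG, any 2 bases and TTTCC, was in 0 of 27 against 1.89%. A match describes letters in this window and is not a binding site, and windows without one say nothing about the factor. The 250 bases before the start are printed 5′ to 3′ on the gene's strand for 5 genes, 4 of them genes whose level was at least 2-fold higher in WT+IL33 and Ifit3, which was held mostly in cluster 5, with each ISRE core in capitals. They lie at chr4:156200819-156201068, minus strand (Isg15), chr19:34640639-34640888, plus strand (Ifit1), chr19:34583279-34583528, plus strand (Ifit3), chr3:142620413-142620662, plus strand (Gbp2) and chr11:83064862-83065111, plus strand (Slfn2).
Isg15: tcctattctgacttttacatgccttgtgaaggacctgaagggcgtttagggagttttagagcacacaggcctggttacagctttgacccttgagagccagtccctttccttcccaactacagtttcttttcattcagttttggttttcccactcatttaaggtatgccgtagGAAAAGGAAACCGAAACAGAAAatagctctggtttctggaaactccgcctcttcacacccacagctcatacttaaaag
Ifit1: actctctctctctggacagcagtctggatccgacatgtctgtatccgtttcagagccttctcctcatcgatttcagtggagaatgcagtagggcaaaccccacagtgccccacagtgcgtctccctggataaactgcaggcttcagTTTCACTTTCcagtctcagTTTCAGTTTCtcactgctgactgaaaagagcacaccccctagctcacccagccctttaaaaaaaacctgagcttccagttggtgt
Ifit3: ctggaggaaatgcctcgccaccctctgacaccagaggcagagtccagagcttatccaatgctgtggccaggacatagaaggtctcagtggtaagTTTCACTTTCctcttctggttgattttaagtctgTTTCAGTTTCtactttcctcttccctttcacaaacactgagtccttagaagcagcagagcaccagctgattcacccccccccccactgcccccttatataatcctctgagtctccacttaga
Gbp2: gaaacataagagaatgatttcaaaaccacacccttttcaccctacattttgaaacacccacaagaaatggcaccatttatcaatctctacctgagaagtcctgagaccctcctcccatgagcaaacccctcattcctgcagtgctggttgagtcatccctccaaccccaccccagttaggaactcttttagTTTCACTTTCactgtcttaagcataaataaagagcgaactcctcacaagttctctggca
Slfn2: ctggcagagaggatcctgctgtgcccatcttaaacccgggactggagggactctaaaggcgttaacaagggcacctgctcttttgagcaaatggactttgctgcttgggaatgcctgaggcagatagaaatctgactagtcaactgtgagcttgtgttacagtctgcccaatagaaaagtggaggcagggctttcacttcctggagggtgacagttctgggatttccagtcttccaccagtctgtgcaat
In Isg15, 3 cores overlap in an unbroken run. Ifit1 and Ifit3 each hold 2 separate cores, and Gbp2 holds 1, with the same letters as the upstream core of Ifit1 and of Ifit3. Slfn2 has no match in its window, although it was one of the genes with a higher level in WT+IL33.

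Several members lie side by side in the genome (GRCm38). Ifit2, Ifit3, Ifit3b and Ifit1 lie within 99.5 kb of chromosome 19, from 34550550 to 34650009, and Rsad2 and Cmpk2 within 37.1 kb of chromosome 12. Gbp3 and Gbp2 span 78.0 kb of chromosome 3, Oasl2 and Oasl1 41.0 kb of chromosome 5, and Slfn5 and Slfn2 119.3 kb of chromosome 11. The transcripts of Ifit3 and Ifit3b are 97.8% identical over 1700 aligned bases, so the split of reads between these neighbours is uncertain. The same caution holds for Oas1a, Ifi204, the Gbp genes and the Slfn genes, which have close relatives in the mouse genome.

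As a group, the 34 genes did not move in one direction between the libraries. Together they held 1612 CPM in WT+IL33, 1272 CPM in cKO+IL33 and 1519.9 CPM in WT+Vehicle. Of the 28 members at 10 CPM or more in WT+IL33 or WT+Vehicle, 6 were at least 2-fold higher in WT+IL33, beside 11.7% of all 8814 genes at that level, and 2 were at least 2-fold lower, beside 10.4%. The higher ones were Gbp2, Ifit1, Isg15, Slfn2, Usp18 and Gbp3, and the lower ones Ifi27l2a and Sp100. The median log2 ratio of the members was -0.032 and that of all genes 0.049.

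**Figure D1:**
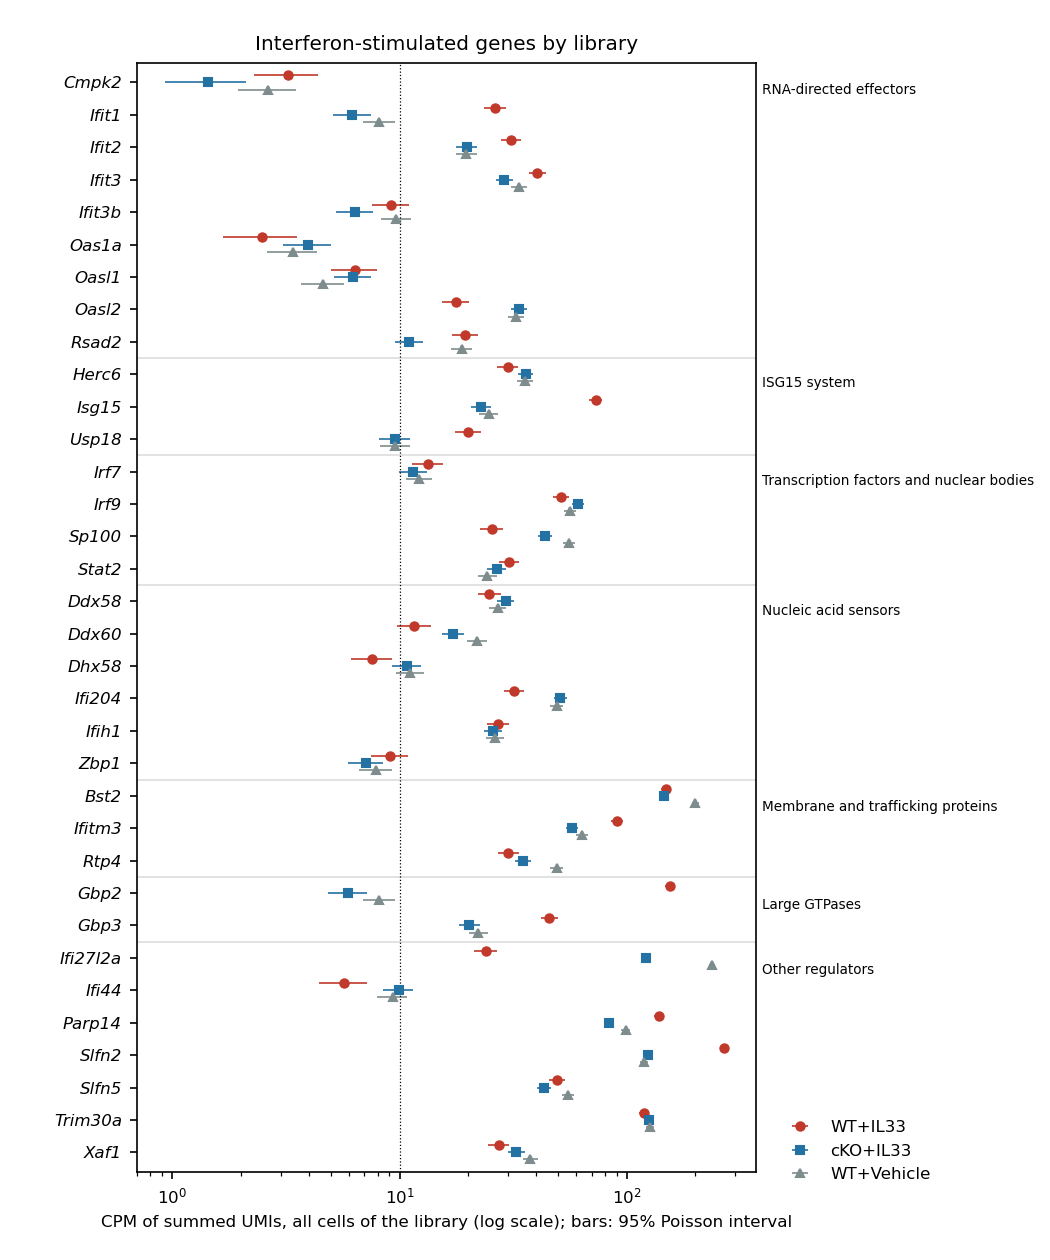
Level of each measured gene in each library, as CPM of the UMIs summed over all cells, on a log axis, with 95% Poisson intervals; genes are grouped by role and the dotted line marks 10 CPM. WT+IL33 lies to the right for Gbp2, Isg15, Ifit1 and Slfn2 and far to the left for Ifi27l2a, while cKO+IL33 and WT+Vehicle lie close together for most genes.

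That pooled picture joins cells of very different ISG content. Cluster 5 held 59 cells of WT+IL33, 86 of cKO+IL33 and 88 of WT+Vehicle, or 2.68%, 3.201% and 3.25% of the cells. It gave 27.2%, 24.3% and 20.05% of the members' UMIs, against 2.82%, 3.504% and 3.82% of all UMIs. The clusters were made from these cells and genes, so that contrast is a description and was not tested. The genes differed in how far they were held in cluster 5. Rsad2, or viperin, which makes a nucleotide that stops viral RNA synthesis, had 78.3%, 76.2% and 79.9% of its UMIs there in WT+IL33, cKO+IL33 and WT+Vehicle. Ifit3, an adaptor of the RNA-binding IFIT complex, had 67.1%, 67.1% and 61.99%. For Rsad2 in WT+Vehicle, a single cell held 165 of the 274 UMIs in cluster 5, so its 79.9% share depends heavily on that cell. At the other end, Irf9, the DNA-binding subunit of the ISRE-bound complex, had 5.29%, 5.26% and 6.22%, so most of its transcripts came from cells that are not in cluster 5. Gbp2 was the member whose share differed most between libraries, with 9.62% in WT+IL33, 48.1% in cKO+IL33 and 36.2% in WT+Vehicle.

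**Figure D2:**
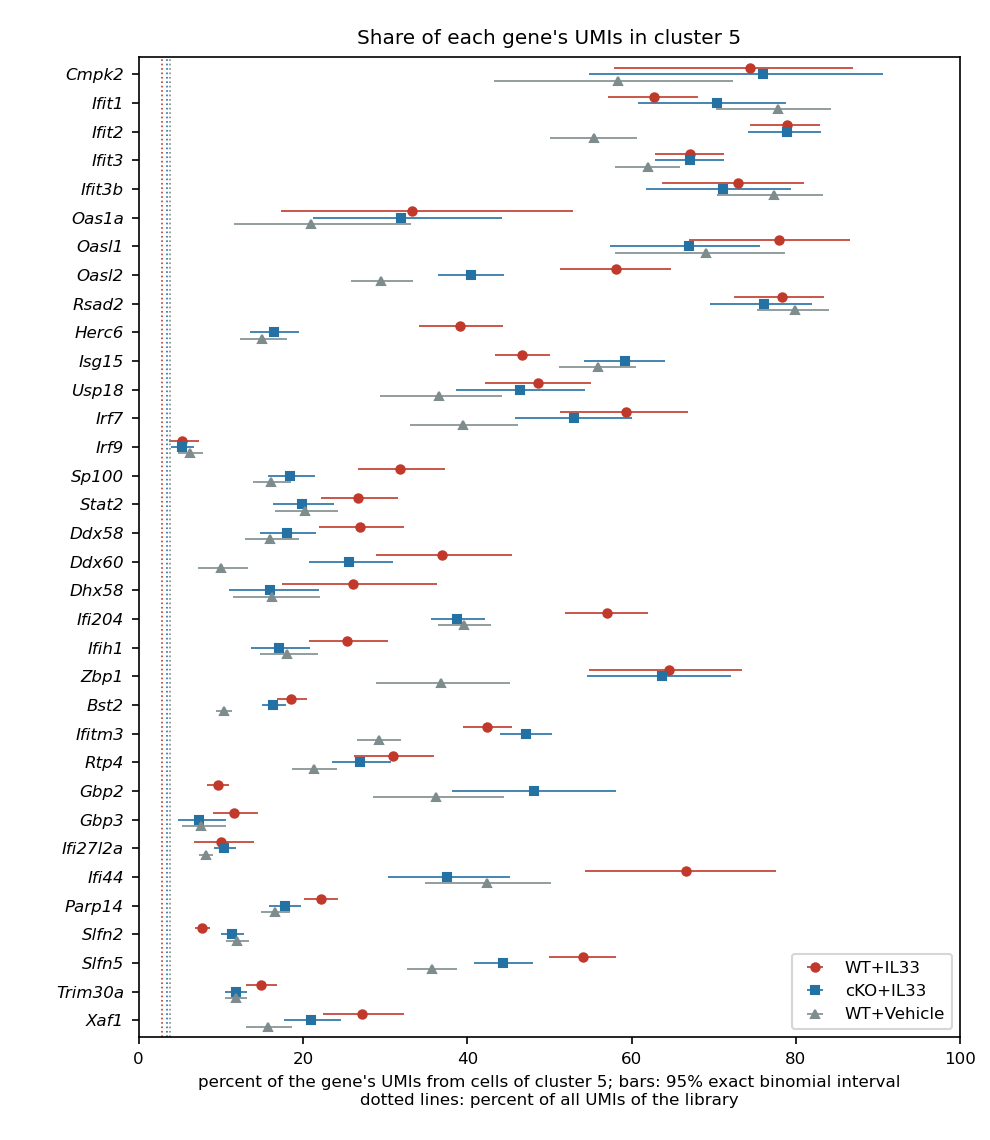
Percent of each gene's UMIs that came from cells of cluster 5, by library, with 95% exact binomial intervals; dotted lines give the percent of all UMIs. The shares of Rsad2 are among the highest, at 76.2% or more in each library, and those of Irf9 are the lowest, at 6.22% or less. The Rsad2 share of WT+Vehicle depends heavily on a single cell with 165 UMIs. The points of Gbp2 lie far apart.

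The cells of cluster 5 carried microglial transcripts. All 8 microglial markers stood above 10 CPM and every cell held at least 3 of them, with summed levels of 13348, 21532 and 20256 CPM in WT+IL33, cKO+IL33 and WT+Vehicle. Of 5 NK cell markers, Ncr1, Klrb1c, Gzma and Nkg7 were at 0 in cluster 5 of each library, and Klrd1 was at 0, 4.898 and 8.598 CPM. Of 5 neutrophil markers, S100a8, Ly6g and Retnlg were at 0 and S100a9 was at 0, 0 and 1.43 CPM, while Csf3r was at 158, 147 and 94.6 CPM inside cluster 5 and 137, 148 and 107 CPM outside. The 5 monocyte markers summed to 99.4, 163 and 166 CPM inside cluster 5 and to 11.03, 28.04 and 52.6 CPM outside. Ly6c2 and Chil3 of that list were at 0 throughout, and nearly all of the sum was Plac8, at 96.5, 158 and 159 CPM inside and 3.73, 24.3 and 50.3 CPM outside. At least 3 of the monocyte markers were in 0%, 0% and 1.14% of the cells of cluster 5, and the part of these cells in the results was not tested. At least 3 of 6 plasmacytoid dendritic cell markers were in 64.4%, 48.8% and 46.6% of its cells, but that list contains the members Bst2 and Irf7 and Siglech, which microglia also express, and its markers Ly6d and Klk1 were at 0. In WT+IL33, cluster 5 also carried the inflammatory transcripts of the other IL-33-treated cells. Il1b, the cytokine interleukin-1 beta, stood at 1239 CPM in cluster 5 and 1320.4 CPM in cluster 1 of that library, and Il12b, a subunit of interleukin-12, at 1555 and 1381 CPM. In cluster 5 of cKO+IL33 and of WT+Vehicle, Il1b was at 6.53 and 0 CPM, and Il12b was at 0 in both.

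Among the RNA-directed effectors, only Ifit1 passed 2-fold between WT+IL33 and WT+Vehicle. Ifit1, which binds foreign RNA by its cap structure, was at 26.3 CPM in WT+IL33, 6.18 CPM in cKO+IL33 and 8.16 CPM in WT+Vehicle, 3.23-fold higher (2.65 to 3.94) in WT+IL33 than in WT+Vehicle. In cells with at most 5000 UMIs its log2 ratio fell from 1.58 to 0.75. Ifit2 was at 30.8 CPM in WT+IL33, 19.8 CPM in cKO+IL33 and 19.7 CPM in WT+Vehicle, and Ifit3 at 40.4 CPM in WT+IL33, 28.9 CPM in cKO+IL33 and 33.6 CPM in WT+Vehicle, both with WT+IL33 highest by less than 2-fold. Oasl2, of the oligoadenylate synthetase family that activates RNA decay, had the opposite order, with 17.7 CPM in WT+IL33, 33.4 CPM in cKO+IL33 and 32.5 CPM in WT+Vehicle, or 1.83-fold lower (1.56 to 2.15) in WT+IL33 than in WT+Vehicle. The other members of this group, Ifit3b, Oas1a, Oasl1 and the mitochondrial nucleotide kinase Cmpk2, stayed under 10 CPM in each library.

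Rsad2 shows how far single cells can set these sums. It was at 19.4 CPM in WT+IL33, 11.04 CPM in cKO+IL33 and 18.8 CPM in WT+Vehicle, yet 165 of its 343 WT+Vehicle UMIs came from 1 cell. The ratio of WT+IL33 to WT+Vehicle was 1.03 (0.871 to 1.22) with that cell and 1.79 (1.46 to 2.19) when the richest cell of each library was left out. For cKO+IL33 against WT+Vehicle, the ratio moved from 0.588 to 1.04 in the same way. For Cmpk2 the largest of the 3 ratios' shifts was 1.27-fold, and for the other members at most 1.15-fold, Isg15 (up to 68 UMIs in a cell) and Ifi27l2a (up to 93) included.

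The genes of the Isg15 system split. Isg15, the ubiquitin-like protein that is joined to other proteins during the response, was at 72.98 CPM in WT+IL33, 22.9 CPM in cKO+IL33 and 24.7 CPM in WT+Vehicle. Its WT+IL33 level was 2.96-fold higher (2.64 to 3.32) than that of WT+Vehicle, and cKO+IL33 was close to WT+Vehicle at a ratio of 0.927 (0.808 to 1.06). Usp18, the protease that removes Isg15 and blocks the interferon receptor, was at 20.04 CPM in WT+IL33, 9.496 CPM in cKO+IL33 and 9.58 CPM in WT+Vehicle, 2.09-fold higher (1.72 to 2.56) in WT+IL33. In cells with at most 5000 UMIs the log2 ratio of Usp18 was only 0.16, beside 0.99 over all cells. Herc6, the main ligase that attaches Isg15 in mouse cells, was at 29.9 CPM in WT+IL33, 35.9 CPM in cKO+IL33 and 35.6 CPM in WT+Vehicle, with a ratio of 0.840002 (0.737 to 0.957) between WT+IL33 and WT+Vehicle.

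The factors that drive ISG transcription differed by less than 2-fold between the libraries. Irf9 was at 51.5 CPM in WT+IL33, 60.9 CPM in cKO+IL33 and 56.3 CPM in WT+Vehicle. Stat2, its partner in the complex, was at 30.3 CPM in WT+IL33, 26.7 CPM in cKO+IL33 and 24.4 CPM in WT+Vehicle, and Irf7, the factor that amplifies interferon production, at 13.4 CPM in WT+IL33, 11.4 CPM in cKO+IL33 and 12.2 CPM in WT+Vehicle. Sp100, a scaffold of nuclear bodies with antiviral functions, was the exception in this group at 25.4 CPM in WT+IL33, 43.6 CPM in cKO+IL33 and 55.6 CPM in WT+Vehicle, 2.19-fold lower (1.93 to 2.496) in WT+IL33 than in WT+Vehicle.

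No nucleic acid sensor passed 2-fold over all cells. Ddx58 (RIG-I) and Ifih1 (MDA5), which detect double-stranded RNA, were at 24.8 and 27.05 CPM in WT+IL33 and 26.99 and 26.4 CPM in WT+Vehicle. Ddx60, a helicase linked to RIG-I signalling, was 1.88-fold lower (1.55 to 2.298) in WT+IL33 at 11.6 CPM in WT+IL33, 17.2 CPM in cKO+IL33 and 21.9 CPM in WT+Vehicle. Ifi204, a DNA sensor of the interferon-inducible Ifi200 family, was at 31.99 CPM in WT+IL33, 50.9 CPM in cKO+IL33 and 49.2 CPM in WT+Vehicle, or 1.54-fold lower (1.36 to 1.74). Dhx58, an RNA helicase that modulates both RNA sensors, was at 7.59, 10.8 and 11.1 CPM, and the Z-nucleic acid sensor Zbp1 stayed under 10 CPM in each library.

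Of the membrane proteins, Bst2 (tetherin), which holds budding virus at the cell surface, was at 149 CPM in WT+IL33, 145 CPM in cKO+IL33 and 200.2 CPM in WT+Vehicle, a level 1.35-fold lower (1.27 to 1.43) in WT+IL33 and 1.38-fold lower (1.31 to 1.45) in cKO+IL33 than in WT+Vehicle. Ifitm3, which blocks viral fusion with endosomes, was at 90.2 CPM in WT+IL33, 57.4 CPM in cKO+IL33 and 63.3 CPM in WT+Vehicle, 1.42-fold higher (1.31 to 1.55) in WT+IL33 than in WT+Vehicle. Rtp4, a transmembrane chaperone with antiviral activity, was at 30.1 CPM in WT+IL33, 34.95 CPM in cKO+IL33 and 49.04 CPM in WT+Vehicle, so both IL-33 libraries lay below WT+Vehicle. None of the 3 reached 2-fold.

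The guanylate-binding proteins Gbp2 and Gbp3, large GTPases that coat intracellular pathogens, included the member with the highest ratio of WT+IL33 to WT+Vehicle. Gbp2 was at 154 CPM in WT+IL33, 5.95 CPM in cKO+IL33 and 8.16 CPM in WT+Vehicle, and its WT+IL33 level was 18.9-fold higher (16.01 to 22.5) than that of WT+Vehicle. Gbp3, its neighbour on chromosome 3, was at 45.6 CPM in WT+IL33, 20.3 CPM in cKO+IL33 and 22.2 CPM in WT+Vehicle, 2.05-fold higher (1.802 to 2.34). In cKO+IL33 neither was above WT+Vehicle, with ratios of 0.729 (0.562 to 0.943) and 0.911 (0.788 to 1.05). Both stand in a family that interferon-gamma induces strongly.

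Ifi27l2a, a small protein of mitochondrial membranes, was the member with the largest difference in the opposite direction. It was at 23.9 CPM in WT+IL33, 122 CPM in cKO+IL33 and 236 CPM in WT+Vehicle, and WT+IL33 was 9.86-fold lower (8.75 to 11.1) than WT+Vehicle. cKO+IL33 lay between them, 1.94-fold lower (1.84 to 2.04) than WT+Vehicle and 5.09-fold higher (4.501 to 5.78) than WT+IL33. Slfn2, a schlafen protein needed for immune cell quiescence, was at 269 CPM in WT+IL33, 124 CPM in cKO+IL33 and 119 CPM in WT+Vehicle, 2.26-fold higher (2.14 to 2.39) in WT+IL33. Its relative Slfn5 was at 49.4 CPM in WT+IL33, 43.1 CPM in cKO+IL33 and 54.96 CPM in WT+Vehicle without a 2-fold difference. Parp14, an ADP-ribosyltransferase, was at 138 CPM in WT+IL33, 83.7 CPM in cKO+IL33 and 98.9 CPM in WT+Vehicle, and Trim30a, a ubiquitin ligase that limits Toll-like receptor signalling, at 118 CPM in WT+IL33, 125 CPM in cKO+IL33 and 127 CPM in WT+Vehicle, nearly level across the libraries. Xaf1, a pro-apoptotic factor, was at 27.3 CPM in WT+IL33, 32.7 CPM in cKO+IL33 and 37.5 CPM in WT+Vehicle, and Ifi44 stayed under 10 CPM in each library.

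Splitting the cells by cluster 5 separated 2 patterns. Outside cluster 5, 4 of 24 members at 10 CPM or more were at least 2-fold higher in WT+IL33 than in WT+Vehicle (11.9% of all genes) and 5 were at least 2-fold lower (10.6%). Inside cluster 5, 16 of 34 were higher (15.7% of all genes) and 1 was lower (16.3%). Cluster 5 of WT+IL33 held only 342141 UMIs in all, so counting error weighs more on the all-gene shares inside than outside. The median log2 ratio of the members was -0.15 outside and 0.97 inside, beside 0.05 and -0.011 for all genes. Their summed level outside was 1207, 998 and 1263 CPM in WT+IL33, cKO+IL33 and WT+Vehicle, and inside 15567, 8834 and 7978 CPM.

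The genes higher outside cluster 5 were Gbp2, Ifit1, Isg15 and Slfn2. Gbp2 was at 144 CPM in WT+IL33, 3.201 CPM in cKO+IL33 and 5.41 CPM in WT+Vehicle in those cells, 26.6-fold higher (21.6 to 33.01) in WT+IL33 than in WT+Vehicle. Isg15 was at 40.1 CPM in WT+IL33, 9.66 CPM in cKO+IL33 and 11.3 CPM in WT+Vehicle, 3.54-fold higher (2.99 to 4.19). Ifit1, at 10.1 CPM in WT+IL33, 1.897 CPM in cKO+IL33 and 1.88 CPM in WT+Vehicle, was 5.38-fold higher (3.63 to 8.17). Slfn2 was at 255 CPM in WT+IL33, 114 CPM in cKO+IL33 and 109 CPM in WT+Vehicle, 2.35-fold higher (2.21 to 2.49). In each case WT+IL33 stood apart. For Isg15, Ifit1 and Slfn2, cKO+IL33 and WT+Vehicle lay close together, while for Gbp2 cKO+IL33 was below WT+Vehicle at a ratio of 0.592 (0.416 to 0.836).

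The genes lower outside cluster 5 were Ifi27l2a, Oasl2, Ddx60, Sp100 and Ifi204. Oasl2 was at 7.64 CPM in WT+IL33, 20.6 CPM in cKO+IL33 and 23.8 CPM in WT+Vehicle, 3.12-fold lower (2.48 to 3.96) in WT+IL33 than in WT+Vehicle. Sp100 was at 17.8 CPM in WT+IL33, 36.9 CPM in cKO+IL33 and 48.5 CPM in WT+Vehicle, 2.72-fold lower (2.34 to 3.18), and Ifi204 at 14.2 CPM in WT+IL33, 32.2 CPM in cKO+IL33 and 30.9 CPM in WT+Vehicle, 2.18-fold lower (1.83 to 2.61). Ddx60 was at 7.55 CPM in WT+IL33, 13.3 CPM in cKO+IL33 and 20.5 CPM in WT+Vehicle, 2.71-fold lower (2.15 to 3.46). For Oasl2, Sp100 and Ifi204, cKO+IL33 was nearer to WT+Vehicle than to WT+IL33, and for Ddx60 it lay between them.

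Inside cluster 5 most of those lower genes had no such difference. Ratios of WT+IL33 to WT+Vehicle there were 1.46 (1.15 to 1.84) for Oasl2, 1.22 (0.939 to 1.57) for Sp100 and 1.27 (1.07 to 1.502) for Ifi204, and Ddx60 was 2.65-fold higher (1.72 to 4.11). Only Ifi27l2a was lower on both sides of the split, at 84.8 CPM in WT+IL33, 362 CPM in cKO+IL33 and 506 CPM in WT+Vehicle inside, 5.97-fold lower (4.08 to 9.04). The direction of Oasl2, Ddx60 and Ifi204 between WT+IL33 and WT+Vehicle thus depended on which cells were summed, that of Sp100 inside could not be told, and the difference between the splits was not tested. Isg15 reached 1207 CPM in WT+IL33, 387 CPM in cKO+IL33 and 361 CPM in WT+Vehicle inside, 3.34-fold higher (2.85 to 3.93). Ifit2 was at 862 CPM in WT+IL33, 446 CPM in cKO+IL33 and 285 CPM in WT+Vehicle, 3.02-fold higher (2.52 to 3.64) in WT+IL33, while its ratio outside was 0.736 (0.555 to 0.9698). Ifitm3 was at 1356 CPM in WT+IL33, 772 CPM in cKO+IL33 and 484 CPM in WT+Vehicle, 2.7998-fold higher (2.43 to 3.23), and Parp14 at 1087 CPM in WT+IL33, 424 CPM in cKO+IL33 and 429.9 CPM in WT+Vehicle, 2.53-fold higher (2.17 to 2.95). Usp18 and Herc6 were 3.76-fold higher (2.75 to 5.18) and 2.96-fold higher (2.27 to 3.86), so that all 3 genes of the Isg15 system passed 2-fold there. Of the transcription factors, Irf7 and Stat2 passed 2-fold (2.22 (1.65 to 3.01) and 2.22 (1.65 to 2.99)) and Irf9 did not (1.05 (0.669 to 1.62)). These levels come from 59, 86 and 88 cells, and whether the clustering drew the line around cluster 5 at the same ISG content in each library was not tested.

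**Figure D3:**
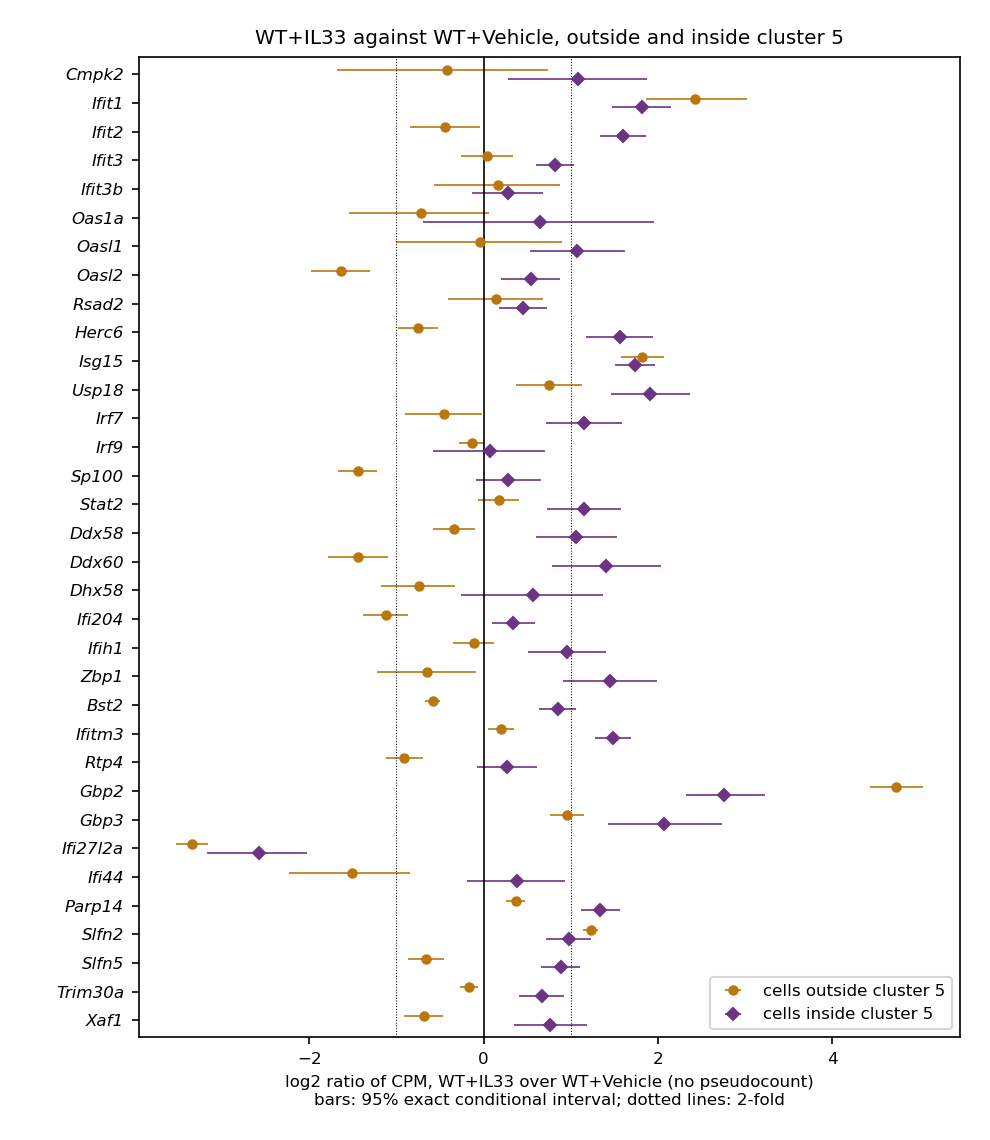
Log2 ratio of CPM between WT+IL33 and WT+Vehicle for each gene, summed over cells outside and inside cluster 5, with 95% exact conditional intervals and dotted lines at 2-fold. Inside cluster 5 most points lie to the right of 0, while outside they lie on both sides, with Gbp2 farthest right and Ifi27l2a farthest left.

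Clusters 0, 2 and 3 had at least 50 cells in each library and allowed the same comparison within a cluster. In cluster 0, 1 of 22 members was at least 2-fold higher in WT+IL33 than in WT+Vehicle (8.05% of all genes) and 6 were at least 2-fold lower (4.06%), in 144 and 1327 cells. The ratio of Gbp2 was 6.24 (3.34 to 11.1) in cluster 0, 5.63 (1.97 to 15.4) in cluster 2 and 22.7 (11.6 to 46.2) in cluster 3. For Ifi27l2a the ratios were 0.1504 (0.08204 to 0.253), 0.0678 (0.0139 to 0.1997) and 0.0646 (0.0175 to 0.166), so these genes kept their directions in each. The ratio of Isg15 was 1.44 (0.6396 to 2.84) in cluster 0, 0.323 (0.00785 to 1.98) in cluster 2 and 4.61 (2.25 to 8.87) in cluster 3, and at 9, 1 and 13 WT+IL33 UMIs its direction in clusters 0 and 2 could not be told. Slfn2 was at 1.4003 (1.09 to 1.77), 1.25 (0.918 to 1.69) and 2.52 (1.95 to 3.23). Usp18 had 1 to 3 WT+IL33 UMIs in each of these clusters.

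Across the clusters of 1 library, most of the Isg15 and Gbp2 UMIs of WT+IL33 outside cluster 5 came from cluster 1, where nearly all its cells are. Isg15 stood at 41.8 CPM in cluster 1 and 17.5 CPM in cluster 0 of WT+IL33, and Gbp2 at 156 and 32.97 CPM. Ifi27l2a had a pattern of its own. In WT+Vehicle it was at 180.5 CPM in cluster 0, 101 in cluster 2, 227 in cluster 3, 506 in cluster 5 and 587 in cluster 4, where Mki67, a marker of dividing cells, was at 917 CPM beside 3.48 CPM in cluster 0. In cKO+IL33 it was at 515 CPM in cluster 4 and 362 CPM in cluster 5, so cluster 4 was again above cluster 5. Isg15 was at 16.2 and 8.44 CPM in cluster 4 of those libraries and at 361 and 387 CPM in cluster 5.

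**Figure D4:**
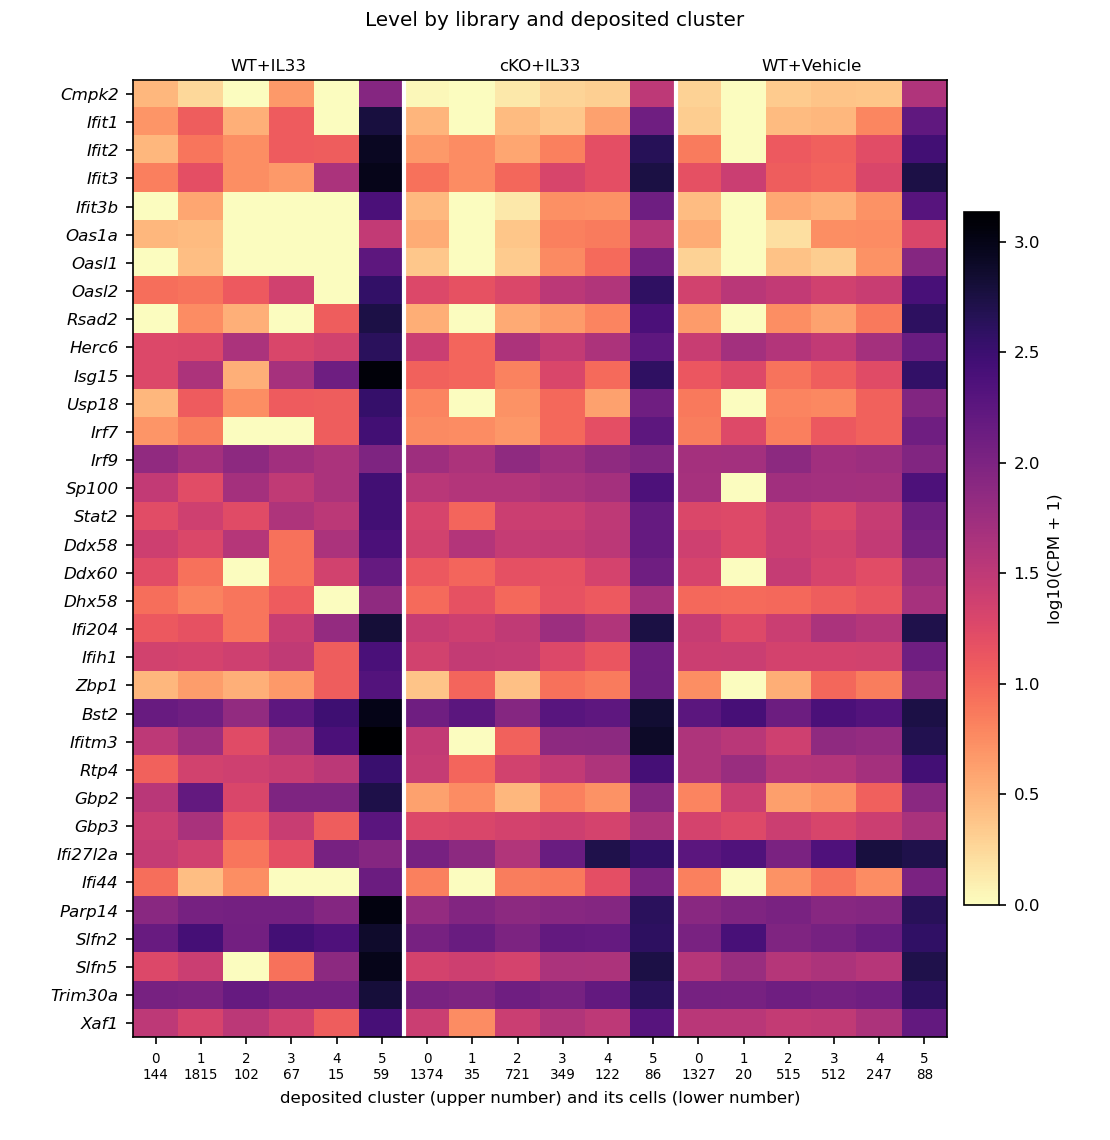
Level of each gene by library and deposited cluster, as log10 of CPM plus 1, with the number of cells in each column. Columns of cluster 5 are the most filled in each library, Gbp2 is filled across WT+IL33, and Ifi27l2a is filled across the other libraries.

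In cKO+IL33, whose cells came from ST2 flox mice that received IL-33 too, no member differed 2-fold from WT+Vehicle over all cells. Of 25 members at 10 CPM or more, 0 were higher and 0 lower, beside 0.447% and 0.483% of all genes, so few genes of any kind passed. The median log2 ratio was -0.11 for the members and 0.057 for all genes. Outside cluster 5 the counts were 0 and 0 of 21 (background 0.471% and 0.53%). Just under the 10 CPM minimum there, Ifit2 was 2.1-fold lower (1.59 to 2.81) in cKO+IL33, at 4.33 against 9.11 CPM. Cmpk2, with 6 and 20 UMIs, was 3.2-fold lower (1.24 to 9.74). Inside cluster 5, 1 of 34 was higher (4.66% of all genes), Ddx60 at 2.19 (1.48 to 3.299), and 0 were lower (4.99%). The member nearest to 2-fold over all cells was Ifi27l2a at a ratio of 0.516 (0.48999 to 0.544), and its ratios in clusters 0, 2 and 3 were 0.592 (0.544 to 0.643), 0.375 (0.313 to 0.449) and 0.606 (0.5303 to 0.691). Nearly all cells are female in cKO+IL33 and male in WT+Vehicle, so genotype, injection and sex cannot be told apart in this comparison.

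Set against WT+IL33, cKO+IL33 had 1 member at least 2-fold higher (10.9% of all genes) and 6 at least 2-fold lower (9.85%), of 28. The higher one was Ifi27l2a and the lower ones were Gbp2, Ifit1, Isg15, Gbp3, Slfn2 and Usp18. Gbp2 was 25.9-fold lower (21.3 to 31.9) in cKO+IL33, Ifit1 4.26-fold lower (3.41 to 5.35) and Isg15 3.19-fold lower (2.83 to 3.598). This comparison shares its WT+IL33 library with the one against WT+Vehicle, so the lists are not independent. Outside cluster 5, 4 of 24 were higher (11% of all genes) and 6 lower (9.81%), with Oasl2, Sp100 and Ifi204 at ratios of 2.701 (2.14 to 3.45), 2.07 (1.77 to 2.43) and 2.28 (1.91 to 2.72). Inside cluster 5, 1 of 34 was higher (15.5%) and 9 were lower (14.8%), Isg15 among them at 0.321 (0.272 to 0.377).

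Cells that carried several inducible members at once were counted after each cell was thinned to 3000 UMIs, because depth differed between the libraries. This left out 353, 86 and 77 shallower cells of WT+IL33, cKO+IL33 and WT+Vehicle. At least 4 of the 13 inducible members measured (Ifit1, Ifit2, Ifit3, Ifit3b, Isg15, Oasl1, Oasl2, Oas1a, Usp18, Rsad2, Cmpk2, Ifi44 and Rtp4) were found in 73 of 1849 cells (3.95%, 3.11 to 4.94%) of WT+IL33, 71 of 2601 cells (2.73%, 2.14 to 3.43%) of cKO+IL33 and 56 of 2632 cells (2.13%, 1.61 to 2.75%) of WT+Vehicle. Without thinning the shares were 5.27%, 5.02% and 5.205%, so their order rests on the correction for depth. Outside cluster 5 the thinned counts were 23 of 1793 cells (1.28%, 0.815 to 1.92%), 8 of 2515 cells (0.318%, 0.137 to 0.626%) and 13 of 2546 cells (0.511%, 0.272 to 0.872%). Of the 23 in WT+IL33, 21 were in cluster 1. Another 15, 27 and 25 cells outside cluster 5 held exactly 3 of these genes, just under the limit, so the count is a range and not a cell type. Inside cluster 5 the shares were 89.3% (78.1 to 95.97%), 73.3% (62.6 to 82.2%) and 50% (39.02 to 60.98%), again highest in WT+IL33. These intervals cover counting error only.

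**Figure D5:**
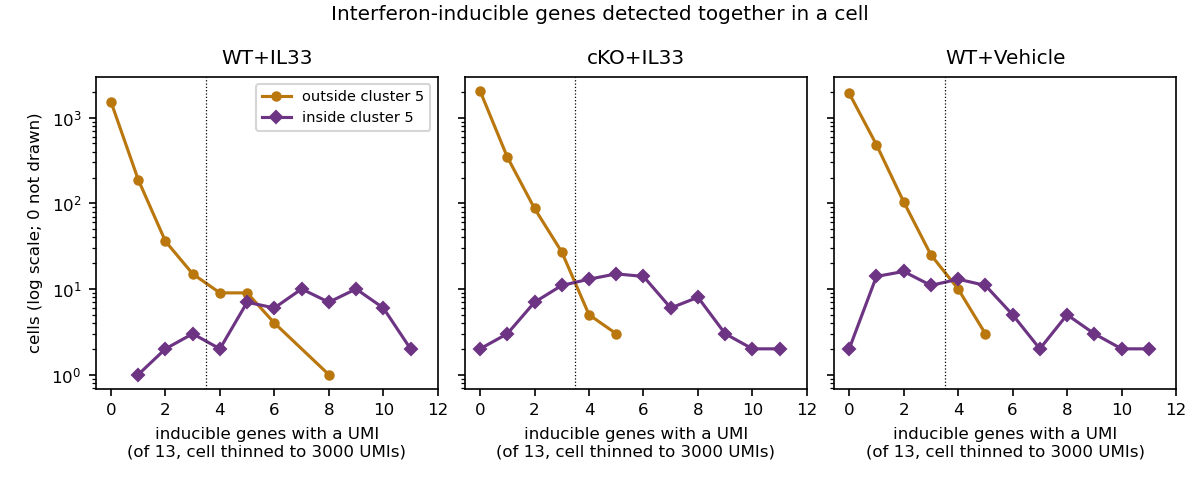
Number of inducible members with a UMI in each cell thinned to 3000 UMIs, outside and inside cluster 5, with 1 panel per library and a dotted line at the limit of 4; the vertical axis counts cells on a log scale. Outside cluster 5 the counts drop off quickly in each library and the tail of WT+IL33 reaches farther, and inside cluster 5 WT+IL33 lies to the right of the other libraries.

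The genes higher outside cluster 5 in WT+IL33 were spread over cells to different degrees. In thinned cells outside cluster 5, Slfn2 UMIs were in 46.6% of WT+IL33 cells, 24.2% of cKO+IL33 cells and 24.9% of WT+Vehicle cells. Gbp2 was in 27.7%, 0.915% and 1.34%, Isg15 in 7.19%, 2.62% and 3.26%, and Ifit1 in 1.62%, 0.676% and 0.707%. Ifi27l2a had the reverse order with 5.298%, 17.7% and 28.7%, and Oasl2 with 1.84%, 5.37% and 7.07%. Free RNA in the droplets can add single UMIs to such shares, and a cell type that should lack these genes was not at hand in the sort.

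Gbp2 and Isg15 also differed in the company they kept. Among WT+IL33 cells outside cluster 5, the 129 cells with an Isg15 UMI held a mean of 0.938 other inducible members and those without it 0.102. For Ifit3 the means were 2.42 in 36 cells and 0.168 in the others, and for Ifit1 2.24 in 29 cells and 0.184. The 497 cells with Gbp2 held 0.34004 inducible members and those without it 0.193, and the 836 cells with Slfn2 held 0.328 and those without it 0.152. Means for Isg15, Ifit3 and Ifit1 count the 12 other genes of the inducible list, and those for Gbp2 and Slfn2 count all 13. For Isg15 the contrast was smaller in cKO+IL33 (0.5 against 0.219) and in WT+Vehicle (0.663 against 0.277). For Gbp2 the means there were 0.261 against 0.253 and 0.324 against 0.322. Cells of 1 library are not replicates, and these means describe each library without a test.

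WT+IL33 held female and male cells in like numbers, which allowed the members to be set side by side by sex within 1 library. Of the 1107 female-called cells, the 802 without Y-linked UMIs were used, beside 1095 male-called cells. The other female-called cells held Y-linked UMIs and were left out, so the sex calls are uncertain. In the female and male cells used, Gbp2 was at 162 and 167 CPM, Isg15 at 74.9 and 85.5 CPM and Ifi27l2a at 27.7 and 22.9 CPM. The low Ifi27l2a level of WT+IL33 was present in its cells of both sex calls. Ifi44 was 2.89-fold higher (1.604 to 5.42) in the female cells and Oasl1 1.96-fold higher (1.17 to 3.37), while Slfn2 was lower there at a ratio of 0.777 (0.716 to 0.843). Oasl2 and Sp100 were also higher, at 1.43 (1.04 to 1.96) and 1.42 (1.09 to 1.85). Gbp3 and Ifitm3 were lower, at 0.72 (0.587 to 0.881) and 0.833 (0.726 to 0.955). Slfn2, Gbp3 and Sp100 were among the members past 2-fold between WT+IL33 and WT+Vehicle. How many mice gave these cells is not stated, so sex and animal cannot be told apart.

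Interferon transcripts themselves were hardly seen. Ifnb1, Ifnk and Ifng, the interferon genes among the table's genes, had 0 UMIs in every library except 1 Ifnk UMI in WT+Vehicle, so no change in them was detectable at this depth. A count of 0 allows up to 3 UMIs among the 12127214 to 18269042 of a library. Transcripts of both receptor chains were present in each library. Ifnar1 and Ifnar2 were at 111, 83.9 and 78.5 CPM and at 275, 205 and 208 CPM in WT+IL33, cKO+IL33 and WT+Vehicle. None of 10 receptor and proximal signalling genes differed 2-fold between WT+IL33 and WT+Vehicle, read against the 11.7% higher and 10.4% lower of all genes.

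Genes that sense nucleic acid and induce interferon gave 3 of 15 higher and 0 lower in WT+IL33 than in WT+Vehicle, beside 11.7% and 10.4% of all genes, and a median log2 ratio of 0.035, beside 0.049 for all genes. Ikbke, a kinase that activates interferon regulatory factors, was at 64.3, 0.515 and 0.274 CPM in WT+IL33, cKO+IL33 and WT+Vehicle, 235-fold higher (100.3 to 726). Ticam1 (TRIF), the adaptor that joins Toll-like receptors to that kinase pathway, was at 36.7, 11.2 and 8.98 CPM, 4.09-fold higher (3.41 to 4.92). Among negative regulators 4 of 11 were higher and 0 lower, beside the same 11.7% and 10.4%, with a median of 0.64. Socs3, an inhibitor of cytokine receptor signalling, was at 318, 33.8 and 16.04 CPM, 19.8-fold higher (17.6 to 22.4), and its relative Socs1, which inhibits the interferon receptors' kinases, at 16.5, 5.89 and 6.35 CPM, 2.597-fold higher (2.06 to 3.29). None of Irf1, Irf2, Irf5, Irf8 and Irf2bp2, other interferon regulatory factors and a protein that binds one of them, differed 2-fold. Irf1, Irf5 and Socs1 are each counted in 2 of the lists described here, and the lists overlap with the members in Ddx58, Ifih1, Stat2, Irf9, Usp18, Trim30a and Dhx58.

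Of genes that lean towards interferon-gamma, 5 of 11 were higher and 1 lower, beside 11.7% and 10.4% of all genes, and the median log2 ratio was 0.077, beside 0.049. Cxcl10, a chemokine that attracts T cells, was at 380.2, 30.4 and 22.4 CPM, 16.9-fold higher (15.3 to 18.8), and within cluster 5 of the same libraries at 7000.04, 761 and 517 CPM. Gbp5, which promotes inflammasome assembly, was at 147, 17.5 and 15.2 CPM, 9.69-fold higher (8.53 to 11.04), and Gbp9 was lower at 11.7, 21.2 and 26.3 CPM. In a further list of ISGs, 4 of 39 were higher and 5 lower, shares near those 11.7% and 10.4%, and the median was -0.32. Ccl12, a monocyte-attracting chemokine, was at 5447, 417 and 387 CPM, 14.1-fold higher (13.7 to 14.4), and Ms4a4c at 23.01, 6.01 and 3.56 CPM, 6.47-fold higher (4.92 to 8.61). Lgals9, the galectin-9 gene, was at 86.6, 226 and 253 CPM, and Fgl2, a fibrinogen-like protein gene, at 7.34, 17.2 and 18.3 CPM, both lower in WT+IL33. Between cKO+IL33 and WT+Vehicle, Socs3 was the single gene of all these lists at 10 CPM or more that passed 2-fold, at 2.11 (1.83 to 2.43).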

How the data were processed

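The authors deposited a raw count table, UMIs of 20586 genes in 7598 cells from 3 libraries, 1 for each group. Per the file headers, another deposited table lists each cell's library, sex call, cluster, cell-cycle phase and mitochondrial and ribosomal percent. Per the submitters' processing notes, Cell Ranger 5.0, Seurat 4.0.1 and GRCm38 are listed, with no roles given. The deposited cluster column is headed, per the file headers, as SCT, a shared-nearest-neighbour graph and resolution 0.4, while its other settings and any removal of doublets are not stated, and no doublets were called here.

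UMIs were summed over the cells of a library, or of a cluster in a library, and divided by the summed total to give CPM. CPM have exact Poisson intervals, ratios exact conditional binomial (Clopper-Pearson) intervals and shares exact binomial (Clopper-Pearson) intervals, all at 95%. Log2 ratios in medians used a pseudocount of 1 CPM. Members were counted as higher or lower at 2-fold and 10 CPM or more in either library. Cells were thinned to 3000 UMIs with a fixed random seed. Depth per library is given in the report. No test was made, as each group has 1 library.

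Members at 50 CPM or more in some library are described with every library's value, and from each other list up to 2 highest and 2 lowest ratios past 2-fold at 10 CPM or more. Members under 50 CPM given in full, the other genes of cluster 5's state and the NF-kB motif were chosen after their values were seen. The members and lists were chosen with earlier results of these data known. Alternatives changed the minimum, fold, pseudocount, totals, cells summed, weighting of cells, sex of cells and thinning. Those without cells holding Xist and Y-linked UMIs, without cells with other leukocyte markers, in cluster 0 alone and without each gene's richest cell were added after the data were seen. The sums and ratios were also tested on simulated counts. Analyses used Python 3.11.15, numpy 2.4.6, scipy 1.17.1 and pandas 2.3.3. Promoters came from RefSeq (GRCm38.p6), and transcripts from GENCODE.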

Additional observations from a re-analysis of the deposited data

How the results depend on the processing

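With 1 library per group the intervals cover counting error only and no library could be left out. Animal and batch cannot be told apart from the groups in any comparison. Sex cannot be told apart from them in cKO+IL33 against WT+Vehicle, and the mix of sex calls differed in the other comparisons too. No paired analysis was possible because each group has 1 library. The count of members at least 2-fold higher in WT+IL33 than in WT+Vehicle, 6 in the report, was 3 with a minimum of 50 CPM and 1 in cluster 0 alone. Of those 6, Ifit1 and Usp18 were under 2-fold in cells with at most 5000 UMIs. The count of lower members, 2 in the report, was 5 outside cluster 5, 5 in cells with at most 5000 UMIs, 4 in male-called cells of both libraries, 6 with a 1.5-fold threshold and 6 in cluster 0 alone. The median log2 ratio, -0.032 in the report, changed sign to 0.112 in cells called G1, 0.0925 in male-called cells, 0.0471 without cells that held Xist and Y-linked UMIs together and 0.0538 without cells with markers of other leukocytes, and was -0.24 in cluster 0 alone. Since it lies near 0 in each, no direction is read from it. For cKO+IL33 against WT+Vehicle, 2 members were lower in cells with at most 5000 UMIs and 2 with a 1.5-fold threshold, against 0 in the report. For cKO+IL33 against WT+IL33, the higher members, 1 in the report, were 4 outside cluster 5, 2 in cells with at most 5000 UMIs, 4 with a 1.5-fold threshold and 4 in cluster 0 alone. The lower ones, 6 in the report, were 3 with a minimum of 50 CPM, 10 with a 1.5-fold threshold and 1 in cluster 0 alone, and the median log2 ratio turned from -0.12 to 0.0895 outside cluster 5. The cause of these shifts was not tested. Among members past 2-fold over all cells, 1 log2 ratio changed sign, that of Usp18 in cluster 0 alone, at -1.35 for WT+IL33 against WT+Vehicle and 1.11 for cKO+IL33 against WT+IL33, where WT+IL33 held 1 Usp18 UMI. Of the other values of single members under the alternatives, 196, 187 and 218 stayed within their counting error and 83, 38 and 61 moved beyond it, 16, 11 and 13 of them with a change of sign, for WT+IL33 against WT+Vehicle, cKO+IL33 against WT+Vehicle and cKO+IL33 against WT+IL33. Between WT+IL33 and WT+Vehicle, Ifit2 turned from a log2 ratio of 0.62 to -0.39 and Irf7 from 0.12 to -0.40 outside cluster 5, and Ifit3 from 0.26 to -0.21 in cells with at most 5000 UMIs. Between cKO+IL33 and WT+Vehicle, Ifit2 turned from 0.0099 to -0.92 outside cluster 5. The share of cells with 4 or more inducible members in WT+IL33, cKO+IL33 and WT+Vehicle, 3.95%, 2.73% and 2.13% in the report, was 4.92%, 4.19% and 3.495% with 3 or more, 2.49%, 1.35% and 0.722% with 6 or more, 2.91%, 1.41% and 1.29% at 2000 UMIs, 5.27%, 5.02% and 5.205% without thinning and 1.28%, 0.318% and 0.511% outside cluster 5. Depth limits the genes under 10 CPM and the clusters with few cells most.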

Other observations

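Other interferon genes were also compared between the libraries inside cluster 5. Of a further list of interferon-stimulated genes, 27 of 54 at 10 CPM or more were at least 2-fold higher in cluster 5 of WT+IL33 than in cluster 5 of WT+Vehicle and 0 were lower, beside 15.7% and 16.3% of all genes. The median log2 ratio of that list was 0.92. The interferon-gamma-leaning genes had 7 of 14 higher and 0 lower, and the receptor and proximal signalling genes 1 of 10 higher and 0 lower. Between cKO+IL33 and WT+Vehicle, the further list had 5 of 52 higher and 0 lower in cluster 5, beside 4.66% and 4.99% of all genes. Ifnar1, a chain of the type I interferon receptor, stood at 105, 81.6 and 67.4 CPM in cluster 5 of WT+IL33, cKO+IL33 and WT+Vehicle. The lists were chosen with results for some of their genes known, and no list was tested. As for the members, the ISG content at the line around cluster 5 differed between the libraries, and its part in these counts was not tested.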
